A study of Homo sapiens with 17 samples.

Results

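Control cells of 2 human breast lines were set against each other without any drug, on 5 of the 17 arrays of the series. They were chosen by their titles: 2 arrays titled MCF10, 1 of cells given DMSO and 1 of untreated cells, and 3 arrays titled MDA-MB-231, 2 of cells given DMSO and 1 of untreated cells. DMSO was the solvent of DZH_2, a compound under test known here only by its code name. Per the labels, cells were treated for 48 h after 24 h of growth, and their RNA, extracted with Trizol, was labelled as cRNA and hybridised to Affymetrix arrays. MDA-MB-231 is a triple-negative breast cancer line of mesenchymal type. MCF10 is the name of a family of mammary epithelial cells, whose members the titles do not tell apart, so whether these are non-tumorigenic is not known here. For the arrays titled MCF10 the cell line field of the labels names MDA-MB-231 while title and description name MCF10, and the titles were followed. "MCF10 arrays" below stands for the arrays so titled. Whether arrays came from separate cultures is not in the labels, so p-values measure only how far these arrays spread, and that spread may be technical.

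Mammary epithelium has an inner luminal and an outer basal layer. Basal cells sit on a laminin-rich basement membrane, to which the integrin of ITGA6 and ITGB4 anchors their keratin filaments through hemidesmosomes, and they hold each other by cadherins and desmosomes. Cells in a mesenchymal state carry vimentin filaments, express ZEB, SNAI and TWIST factors and secrete fibronectin and other interstitial matrix. Established non-tumorigenic mammary lines are usually basal in type. Cell lines also differ in how they take up and make amino acids, in lipid storage and in the enzymes that handle oxidised molecules.

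Values are the deposited log2 signals, where 1 unit is a factor of 2, and differences are MCF10 minus MDA-MB-231. Levels are given in the order DMSO and untreated for MCF10, and DMSO replicate 1, DMSO replicate 2 and untreated for MDA-MB-231. The error after ± is the standard error from limma, which pools the spread within the lines (n = 2 and n = 3 arrays), and a gene is called higher or lower where limma's p, adjusted by Benjamini and Hochberg over 17687 genes, was under 0.05. The 193 called genes named below had adjusted p between 9.4e-09 and 0.049 by limma. Of all genes, 8998 were called (50.9%), 3812 higher (21.6%) and 5186 lower in MCF10 (29.3%). Of all genes 2630 were called with a difference of at least 2 in either direction (14.9%), 509 higher and 2121 lower, and the arrays of the lines did not overlap for 12050 genes (68.1%). These shares are the background against which each list's counts stand. The median difference of all genes was 0.04. Centring each array on its median moved it to 0.46 and the share of higher genes among the calls from 42.4% to 64.9%, and quantile normalization gave 53.3%. Differences below are on the scale as deposited. The range given after a list's median is over the alternatives, that is other scalings, a filter on low signal, other sets of arrays and each array left out, and where it holds 0 the median has no settled direction.

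The lines also differed in features of the arrays that do not come from their genes. Of 23 background probe sets, 7 held 1 identical value on all 13 MDA-MB-231 arrays of the series and none did on the 4 MCF10 arrays. The 8 spike-in probe sets were 0.71 to 1.62 higher on the MCF10 control arrays. The 2197 positive control probe sets had a median difference of -0.85. Their median level was 11.52 to 11.54 on the MCF10 control arrays and 12.61 to 12.85 on the MDA-MB-231 ones. When fitted with the genes, 28 of 63 ERCC probe sets were called, all higher in MCF10. Of 612 negative control probe sets 173 (28.3%) were called in that fit, 119 higher and 54 lower. Of the negative controls 7.19% were called with a difference of at least 2 and 1.31% with at least 4. The labels do not say whether the lines were processed apart, so line and processing cannot be told apart in any result here. Median differences also moved with signal: -0.76 for genes with a mean of 8 to 10, -0.64 at 10 to 12 and 0.34 under 6. A gene is called near the negative controls where its mean in a line lay under their 75th percentile (6.07 in MCF10 and 5.77 in MDA-MB-231), and the size of its difference then depends on the floor. Correlation over genes was 0.989 to 0.994 among MDA-MB-231 arrays, 0.976 between the MCF10 arrays and 0.843 to 0.855 between the lines.

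The 6 lineage markers split in both directions. Among basal genes, S100A2, a calcium-binding protein of basal epithelia, stood at 14.78 and 14.91 on the MCF10 arrays and 6.75, 6.54 and 6.75 on the MDA-MB-231 arrays. KRT5, the type II keratin of basal cells, stood at 8.92 and 9.67 against 4.53, 4.40 and 4.61, and ITGB4, the hemidesmosome integrin, at 15.13 and 15.45 against 10.67, 10.26 and 11.61. For all 3 the groups stood apart, with differences of 8.17 ± 0.21, 4.78 ± 0.26 and 4.45 ± 0.37. Of the mesenchymal genes, ZEB1, a repressor of epithelial genes, stood at 6.59 and 7.88 in MCF10 and 12.58, 12.24 and 12.32 in MDA-MB-231, and VIM at 15.21 and 15.24 against 16.71, 17.04 and 17.01. Both were lower in MCF10, with differences of -5.15 ± 0.35 and -1.70 ± 0.22. FN1, which codes for fibronectin and was given as a mesenchymal marker, went the other way: 17.60 and 17.69 in MCF10 against 9.65, 9.26 and 11.19, a difference of 7.61 ± 0.48. Over all 17 arrays of the series, which include these 5, the 6 genes did not overlap between the lines, beside 3174 of all genes (17.9%). FN1 lay at 16.70 to 17.69 on the 4 MCF10 arrays and at 6.22 to 11.19 on the 13 MDA-MB-231 arrays. ZEB1 lay at 5.66 to 7.88 and 8.64 to 12.58.

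The defining genes of epithelium in general did not follow the title. CDH1, the adhesion molecule of epithelial cells, stood at 4.52 and 3.62 in MCF10 and 3.44, 3.71 and 3.99 in MDA-MB-231, near the negative controls in both. The splicing regulator ESRP1 (5.11 and 4.61 against 4.17, 4.21 and 5.57) and the tight junction gene CLDN1 (4.56 and 4.45 against 5.18, 4.94 and 4.51) were near them as well. None of the 3 was called, with differences of 0.36, 0.21 and -0.38. EPCAM, an epithelial surface antigen, was lower in MCF10 (4.87 and 5.61 against 6.67, 6.83 and 6.79), as was KRT19 (5.96 and 6.14 against 9.23, 9.70 and 9.19). In the list of epithelial junction and splicing genes, 13 of 19 measured members were near the negative controls in both lines, 7 were higher and 2 lower, with a median difference of 0.36 (0.02 to 0.78). GRHL2, a transcription factor that maintains epithelial junctions, was higher by 1.93 ± 0.33, and SPINT2, an inhibitor of membrane proteases, was -2.08 ± 0.25. Of the 6 measured basal markers 5 were higher and 0 lower, and 1 of the 6 was near the negative controls in MCF10. Of 8 epithelial markers 1 was higher and 2 lower. The 5 luminal markers had 2 higher and 1 lower, and the 7 mesenchymal ones 4 higher and 2 lower. Not all markers in these counts are named in the text, and the plot of cell type markers shows each measured one. On the MCF10 arrays several high basal markers, low CDH1 and high FN1 thus stood side by side, and the markers do not settle which cells they hold.

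**Figure D1:**
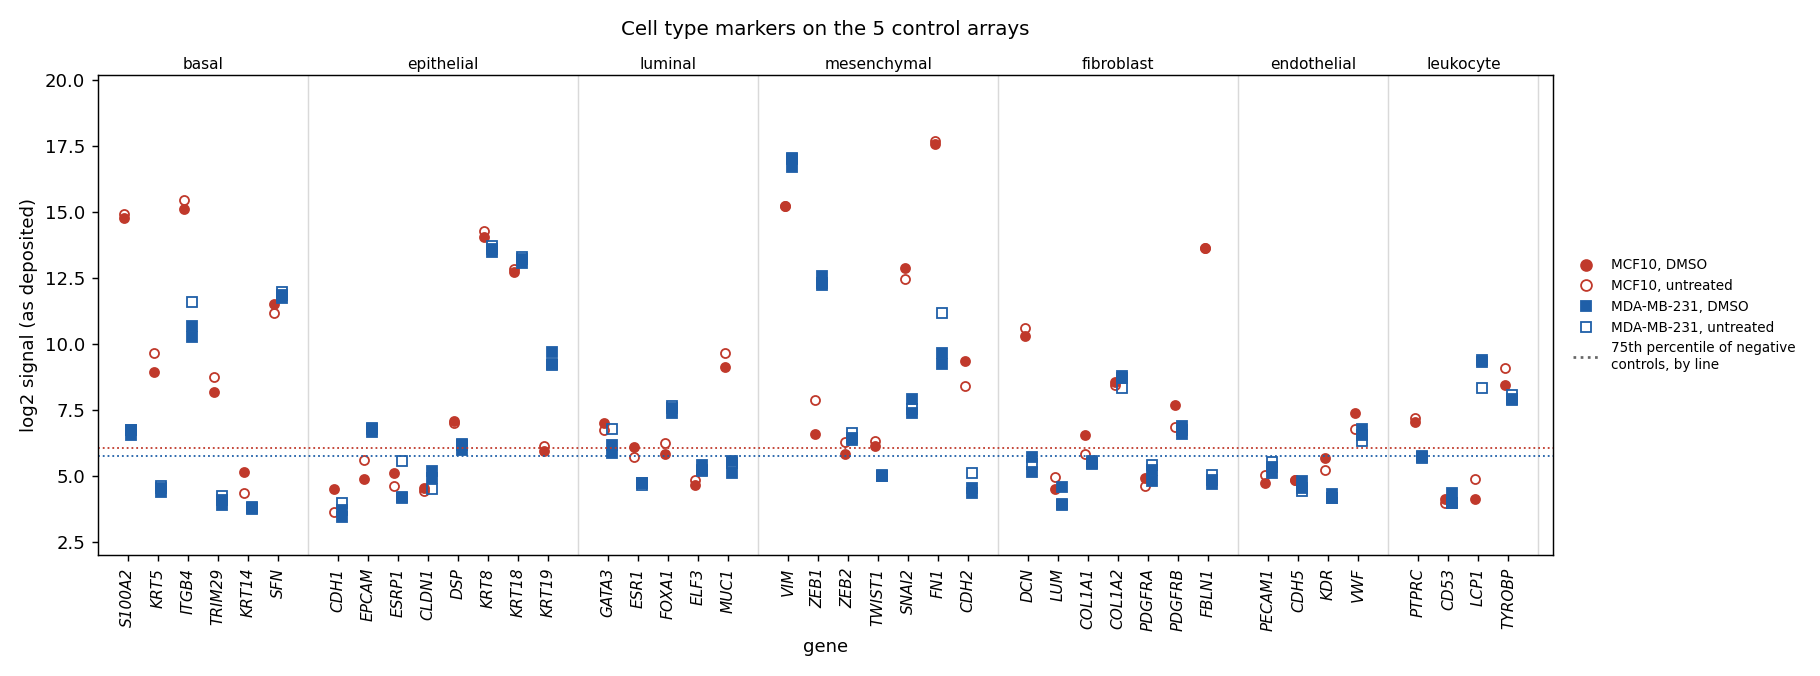
Log2 signal (vertical axis) of each measured cell type marker (horizontal axis) on the 2 MCF10 arrays (circles) and the 3 MDA-MB-231 arrays (squares); open symbols are untreated cells and dotted lines the 75th percentile of the negative controls of each line (6.07 and 5.77). S100A2, ITGB4, FN1, FBLN1 and DCN are far higher on the MCF10 arrays, ZEB1, KRT19 and LCP1 lower, and CDH1, ESRP1 and CLDN1 lie under the lines in both.

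Markers of other cell types were read the same way. Of 19 measured fibroblast genes 9 were higher and 2 lower, with a median difference of 0.67 (0.59 to 5.02). The highest value is that of the 9 members left by the signal filter. That filter keeps genes high in only 1 line, such as DCN below, so the value does not show a stronger lean. The matrix protease MMP2 (13.79 and 13.80 against 4.81, 4.29 and 5.07), the fibulin FBLN1 (13.65 and 13.65 against 4.69, 4.86 and 5.03) and the small proteoglycan DCN (10.30 and 10.60 against 5.14, 5.70 and 5.46) were high on both MCF10 arrays and near the negative controls on all 3 MDA-MB-231 arrays. POSTN, periostin, was higher by 7.25 ± 0.21. Other defining fibroblast genes were not called: COL1A1 stood at 6.54 and 5.82 against 5.47, 5.59 and 5.49, LUM at 4.498 and 4.98 against 3.88, 4.59 and 3.93, PDGFRA at 4.92 and 4.61 against 4.82, 5.24 and 5.42, and COL1A2 at 8.55 and 8.43 against 8.80, 8.71 and 8.33. Over the 7 measured fibroblast markers the mean level was 7.85 to 8.02 on the MCF10 arrays and 5.67 to 5.90 on the others. The part of fibroblast RNA in these differences was not tested, and in bulk RNA a few cells with much of a transcript and many cells with little cannot be told apart. The endothelial genes PECAM1 (4.72 and 5.05 against 5.11, 5.34 and 5.52) and CDH5 (4.86 and 4.86 against 4.54, 4.81 and 4.43) and the leukocyte gene CD53 (4.14 and 3.99 against 3.96, 4.35 and 3.97) were near the negative controls in both lines. Of 4 endothelial markers 1 was higher and 0 lower, and the higher one was neither PECAM1 nor CDH5. Of 4 leukocyte markers 2 were higher, neither of them CD53 or LCP1, and 1 lower. In each line 3 of the endothelial and 2 of the leukocyte markers lay near the negative controls. In the longer leukocyte list 5 of 10 measured genes were higher and 2 lower (median 0.74, 0.41 to 1.16). LCP1, an actin bundler of leukocytes that some carcinoma lines also express, was lower in MCF10, with a difference of -4.51 ± 0.37.

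Among the 12 largest positive differences, ANPEP, the aminopeptidase CD13, led with 18.82 and 18.71 in MCF10 against 5.52, 5.46 and 5.99 in MDA-MB-231, a difference of 13.11 ± 0.24. CADM3, an immunoglobulin-type adhesion molecule best known from neurons, followed with 16.06 and 15.99 against 3.55, 4.01 and 4.01 and a difference of 12.17 ± 0.24. In MDA-MB-231 both genes lay near the negative controls. The others of the 12 were H2AC8 (10.02), a histone gene with near-identical relatives, DUSP1 (9.60) and DUSP23 (9.16), which code for phosphatases, the sodium channel subunit SCNN1G (9.51), the surface antigen MSLN (9.27), YPEL3 (9.17), MMP2 (9.07), FBLN1 (8.79), EFEMP1 (8.77) and the simple-epithelial keratin KRT7 (8.73). Over all 17 arrays ANPEP lay at 17.47 to 18.82 in MCF10 and 5.31 to 6.28 in MDA-MB-231, and KRT7 at 16.29 to 17.31 and 7.75 to 8.58.

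At the other end CD96, a receptor of the immunoglobulin family known from T cells and NK cells, stood at 3.70 and 3.38 in MCF10 and 13.15, 13.45 and 13.18 in MDA-MB-231, a difference of -9.72 ± 0.23. EDIL3, a secreted integrin ligand, stood at 4.88 and 5.08 against 14.08, 14.42 and 14.01, a difference of -9.19 ± 0.23. The others were the calcium channel subunit CACNA2D4 (-8.15), NIBAN1 (-7.53), the collagen prolyl 3-hydroxylase P3H2 (-7.38), GMFG (-7.14), asparagine synthetase ASNS (-6.96), SNAPC1 (-6.71), the mannosidase MANEA (-6.64), the RNA helicase DDX21 (-6.63), the guidance cue SEMA3A (-6.62) and ENPP1 (-6.56), an ectoenzyme that makes pyrophosphate. Of these 24 genes 23 did not overlap between the lines over all 17 arrays, beside 3174 of all genes (17.9%), but they were chosen for large differences without overlap on 5 of these arrays.

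The longer lineage lists, which hold some of the markers above, were as mixed. Of 13 measured basal epithelial genes 9 were higher and 2 lower (median 1.27, -0.33 to 1.69). The lowest value is that of the 7 members left by the signal filter. TRIM29, a regulator found in basal epithelium, was higher by 4.38 ± 0.25, and EGFR, the epidermal growth factor receptor, was -2.23 ± 0.23. TP63, KRT17, COL17A1 and the laminin-332 genes were not analysed here. Of 9 contractile and myoepithelial genes 5 were higher and 1 lower (median 0.97, 0.57 to 1.39), with the actin-binding protein TAGLN at 6.37 ± 0.25, smooth muscle actin ACTA2 at 3.46 ± 0.23 and the peptidase MME at 3.78 ± 0.33. The luminal list had 4 higher and 5 lower of 19, with the mucin MUC1 at 3.995 ± 0.26 and the luminal regulators SPDEF at -2.69 ± 0.37 and FOXA1 at -1.48 ± 0.23. KRT8 and KRT18, the keratins of simple epithelium, were high in both lines and not called (0.57 and -0.41). Of 16 measured keratins 7 were higher and 3 lower.

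The mesenchymal list was divided within itself: of 25 genes 14 were higher and 10 lower in MCF10 (median 0.99, 0.16 to 1.41). Of the transcription factors, SNAI2 stood at 12.87 and 12.45 against 7.40, 7.91 and 7.55, a difference of 5.04 ± 0.25, and TWIST2 at 5.95 ± 0.23, while ZEB2 was not called (-0.42). ZEB1 and SNAI2, both repressors of CDH1, thus differed in opposite directions. Of its secreted products TGFBI was higher by 7.90 ± 0.36 and SPARC, which binds collagen, by 6.13 ± 0.27, and the motility-linked S100A4 by 7.23 ± 0.29. CDH2, N-cadherin, was higher by 4.20 ± 0.34 and CDH11, a cadherin of mesenchymal cells, was -3.32 ± 0.26. The scaffold AKAP12 was -6.02 ± 0.30 and QKI, an RNA-binding regulator of splicing, -2.67 ± 0.23.

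The S100 family of small calcium-binding proteins leaned in 1 direction. Of 17 members 14 were higher and 1 lower, with a median of 1.14 (1.10 to 2.21). Only 5 were higher by at least 2, and 5 were near the negative controls in both lines. The signal filter, which keeps genes high in only 1 line, left 10. Dim genes lean the same way in general: of 6705 genes with a mean under 6, 1684 were called higher and 344 lower. Most S100 genes lie in 1 cluster of neighbouring genes on chromosome 1, where 13 of 15 measured members were higher and 0 lower. S100A2 and S100A4 led, and S100A3 was higher by 5.84 ± 0.34, S100A6 by 4.06 ± 0.22, S100A13 by 3.01 ± 0.22 and S100A14, an epithelial member, by 1.89 ± 0.31. The promoter of S100A2 is shown because the gene has the largest difference of the basal list and its window holds a match to TGANTCA, the core letters of AP-1 sites, in capitals. The sequence is the 250 bases before a RefSeq start, on the gene's strand.

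S100A2, GRCh38.p14, chr1:153565845-153566094, minus strand: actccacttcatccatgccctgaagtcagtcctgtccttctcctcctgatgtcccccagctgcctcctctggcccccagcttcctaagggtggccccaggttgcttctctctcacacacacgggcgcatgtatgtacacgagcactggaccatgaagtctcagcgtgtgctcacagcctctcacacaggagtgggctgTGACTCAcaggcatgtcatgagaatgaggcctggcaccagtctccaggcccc

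The match ends 45 bases before the start, and 1 of the gene's 2 listed starts has it. TGANTCA, on either strand, occurs in 6.57% of the 35116 RefSeq promoter windows of that length and for 8.06% of their genes. In the S100 list 4 of the 13 higher genes with a window had a match, S100A2, S100A3, S100A5 and S100A12. The call of S100A12 (0.58 ± 0.21) was lost on leaving out any 1 of the 5 arrays, with adjusted p of 0.057 to 0.12 by limma. A match describes letters and does not show that a factor binds.

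Genes of body position and mammary fate showed a few large differences among many small ones. Of 23 measured HOX genes 7 were higher and 3 lower, and 13 were near the negative controls in both lines. HOXC13 stood at 11.49 and 10.92 against 3.43, 3.39 and 3.39, a difference of 7.80 ± 0.24, and its neighbours HOXC11 and HOXC9 were higher by 2.45 ± 0.24 and 2.66 ± 0.28. HOXB9 was -3.68 ± 0.21. Of 32 mammary transcription factors 10 were higher and 6 lower. TBX3, which is needed for mammary gland formation, stood at 11.70 and 12.28 against 3.85, 4.23 and 4.21, a difference of 7.90 ± 0.26, and IRX4 was higher by 4.02 ± 0.23. SOX9, a factor of mammary stem and progenitor cells, was -3.64 ± 0.24. TFAP2A and TFAP2C, related AP-2 factors, went in opposite directions at 2.38 ± 0.29 and -2.88 ± 0.30.

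Matrix glycoproteins differed in both directions. Of 36 measured 17 were higher and 6 lower, 18 of them by at least 2, with a median of 0.65 (0.47 to 2.48). The signal filter, which keeps genes high in only 1 line, left 27 of the 36. Of the fibulins, which bind elastic fibres and basement membrane, EFEMP1, or fibulin-3, stood at 13.70 and 13.32 against 4.63, 4.99 and 4.58 and FBLN5 at 13.58 and 13.24 against 5.97, 5.87 and 6.10, with differences of 8.77 ± 0.24 and 7.43 ± 0.22. FBLN2, another fibulin, was near the negative controls in both lines (0.02, not called). THBS1, an adhesive glycoprotein that also acts on TGF-beta, was higher by 4.72 ± 0.28. TNC, tenascin-C, a matrix protein of wounds and tumour stroma, was the reverse at 4.14 and 4.44 against 9.56, 10.14 and 9.46, a difference of -5.43 ± 0.27. The microfibril protein MFAP2 was -4.13 ± 0.32, ABI3BP -3.84 ± 0.43 and CCN2, the connective tissue growth factor, -2.57 ± 0.24. Of 22 proteoglycans 8 were higher and 4 lower. DCN was joined by its relative BGN at 4.08 ± 0.29, by HSPG2, the basement membrane perlecan, at 3.37 ± 0.26 and by the syndecan SDC4 at 2.69 ± 0.22, while CSPG4 was -1.90 ± 0.22.

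Collagens differed gene by gene. Of 31 measured 9 were higher and 5 lower (median 0.16, -0.11 to 0.58), and 11 were near the negative controls in both lines. Chains of 1 protein went apart: of the 3 that form collagen VI, COL6A3 stood at 10.98 and 10.85 in MCF10 against 3.89, 4.11 and 4.94, whereas COL6A1 stood at 9.58 and 9.92 against 11.70, 11.51 and 12.77 and COL6A2 at 7.96 and 7.87 against 9.45, 9.09 and 10.11. Their differences were 6.60 ± 0.31, -2.24 ± 0.36 and -1.63 ± 0.30. COL8A1, a network collagen, was higher by 4.25 ± 0.21, the basement membrane chain COL4A5 by 2.10 ± 0.28, and the transmembrane COL13A1 was -3.99 ± 0.48.

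The enzymes that finish collagen divided in the same way. Of 19 measured 7 were higher and 4 lower. P3H2 stood at 4.57 and 5.01 against 12.11, 12.05 and 12.36, near the negative controls in MCF10. Of the catalytic subunits of prolyl 4-hydroxylase, P4HA1 was -3.10 ± 0.42 and P4HA2 3.27 ± 0.25, opposite in direction. The procollagen C-proteinase BMP1 was higher by 3.38 ± 0.24, the lysyl hydroxylase PLOD1 by 1.82 ± 0.23, and the crosslinking transglutaminase TGM2 was -2.97 ± 0.32. Of 33 proteases and inhibitors 10 were higher and 11 lower. MMP14, the membrane protease that activates the MMP2 proenzyme, stood at 10.07 and 9.85 against 12.63, 12.80 and 13.16, a difference of -2.91 ± 0.24, opposite to MMP2 itself. The urokinase PLAU and its receptor PLAUR were both lower, -1.90 ± 0.30 and -1.92 ± 0.23. TIMP1, an inhibitor of metalloproteases, was higher by 4.26 ± 0.24, the serpin SERPINB5, known as maspin, by 7.01 ± 0.23 and the lysosomal protease CTSB by 3.49 ± 0.21.

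Integrins differed by subunit. Of 19 measured 9 were higher and 4 lower (median 0.54, 0.22 to 0.96). ITGA6, the partner of ITGB4 in hemidesmosomes, stood at 8.42 and 9.41 in MCF10 and 13.03, 12.77 and 12.88 in MDA-MB-231, a difference of -3.98 ± 0.30, opposite to ITGB4. The collagen receptor subunit ITGA2 stood at 5.47 and 6.06 against 11.29, 11.87 and 11.58, a difference of -5.82 ± 0.27, and its partner ITGB1 was -2.05 ± 0.23. ITGA5, which with ITGB1 forms the main fibronectin receptor, was higher by 3.99 ± 0.24. ITGB8, which activates latent TGF-beta, was higher by 5.29 ± 0.22, and ITGA10, another collagen receptor subunit, by 3.50 ± 0.21. Of 12 laminin and hemidesmosome genes 4 were higher and 3 lower. LAMB1 was higher by 3.33 ± 0.27 and the tetraspanin CD151, which associates with laminin-binding integrins, by 2.64 ± 0.23, while DST, whose epithelial product ties keratin to the hemidesmosome, was -3.69 ± 0.30.

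**Figure D2:**
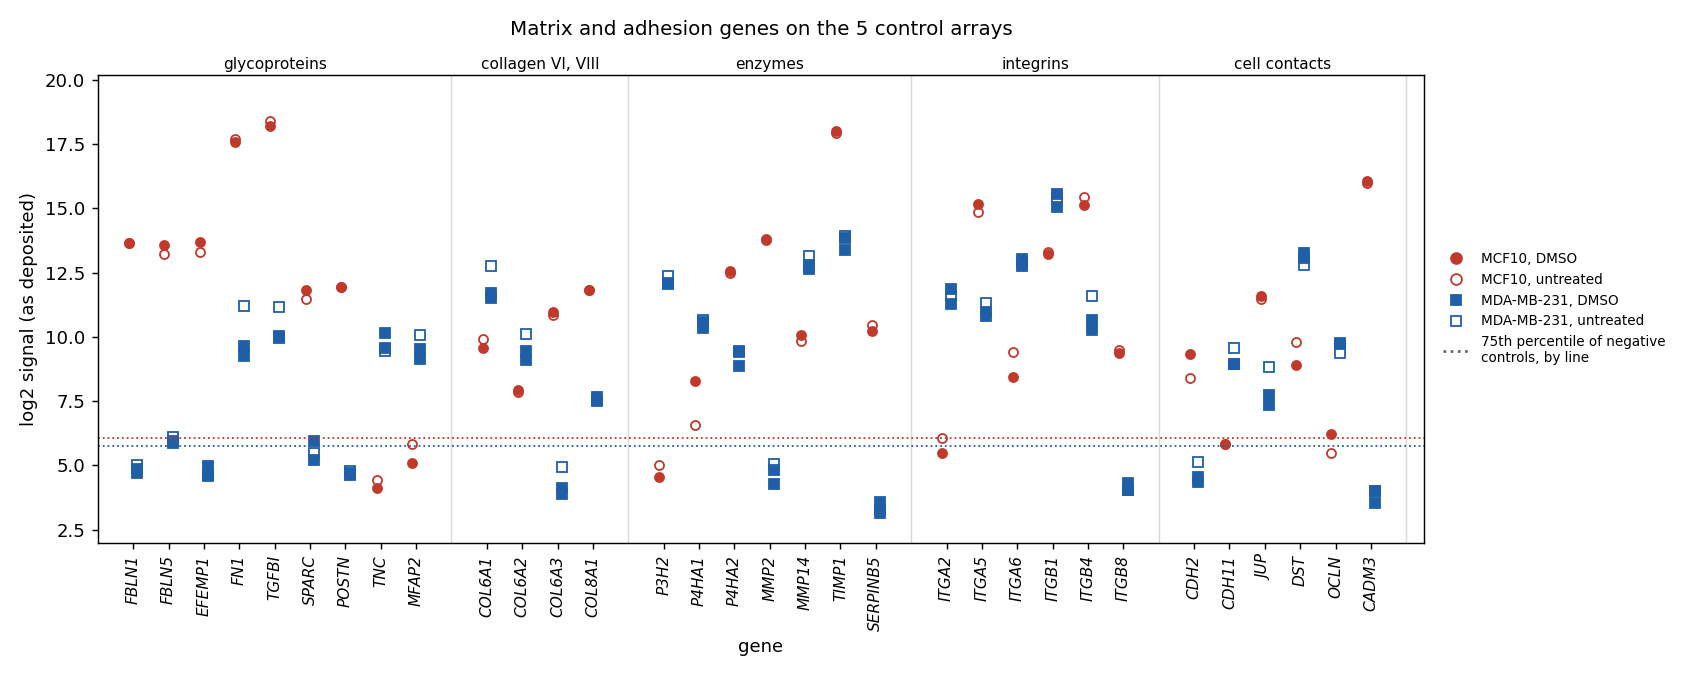
Log2 signal (vertical axis) of matrix and adhesion genes (horizontal axis) on the 2 MCF10 arrays (circles) and the 3 MDA-MB-231 arrays (squares); open symbols are untreated cells and dotted lines the 75th percentile of the negative controls of each line. Some related genes stand on opposite sides. On the MCF10 arrays COL6A3 is higher and COL6A1 lower, and ITGB4 higher and ITGA6 lower. MMP2 and P4HA2 are higher there, and MMP14 and P4HA1 lower.

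Contacts between cells were no more uniform. Of 20 cadherin and catenin genes 5 were higher and 4 lower. JUP, plakoglobin, which serves both adherens junctions and desmosomes, stood at 11.61 and 11.46 against 7.75, 7.37 and 8.81 and was higher by 3.56 ± 0.38, while CTNNA1, the alpha-catenin that links cadherins to actin, was -2.12 ± 0.23. Of 13 desmosome genes 6 were higher and 4 lower, with DSP, desmoplakin, higher by 0.91 ± 0.21 and the desmosomal cadherins DSG2 and DSC2 at -2.202 ± 0.22 and -2.05 ± 0.26. Of 28 tight junction and other adhesion genes 4 were higher and 12 lower. Their median was -0.40 (-1.22 to 0.03). OCLN, occludin, was -3.78 ± 0.28, the nectin NECTIN3 -3.12 ± 0.24 and the laminin receptor BCAM -2.48 ± 0.26. Of 25 focal adhesion and actin genes 8 were higher and 9 lower, with a median of -0.17 (-0.36 to 0.26). TPM2, a tropomyosin, stood at 15.07 and 15.002 against 6.86, 6.45 and 6.59 and was higher by 8.40 ± 0.22. The actin-binding LIMA1 was -5.09 ± 0.39, the kindlin FERMT1 -3.54 ± 0.26, the crosslinker ACTN4 -3.12 ± 0.30 and vinculin VCL -2.23 ± 0.22.

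Several genes for making and importing amino acids were far lower in MCF10. Of the 21 genes of the 3 lists with a mean signal of 8 to 12, 61.9% were lower and 9.52% higher, beside 51.1% and 18.1% of all genes at that signal, so the counts alone lie near the background. In the serine, glycine and one-carbon list 10 of 18 were lower and 3 higher (median -1.09, -1.21 to -0.33). PSAT1, which makes phosphoserine, stood at 9.74 and 10.14 in MCF10 and 15.58, 15.64 and 15.42 in MDA-MB-231, a difference of -5.60 ± 0.23. The folate enzymes of mitochondria MTHFD1L and MTHFD2 were -4.12 ± 0.22 and -2.93 ± 0.23, the cystathionase CTH -2.67 ± 0.22 and PHGDH, which opens the serine pathway, -1.36 ± 0.28. The call of PHGDH was lost under quantile normalization and with all 17 arrays in the fit, with adjusted p of 0.051 to 0.13 by limma. In the list of other amino acid enzymes 9 of 21 were lower and 4 higher. Its median was -0.17 (-0.76 to 0.26). ASNS stood at 8.62 and 7.59 against 15.20, 14.96 and 15.02, and BCAT1, the cytosolic branched-chain aminotransferase, at 5.15 and 6.12 against 12.12, 11.90 and 12.14, with differences of -6.96 ± 0.31 and -6.42 ± 0.30. GLUL, glutamine synthetase, was the exception in size at 15.64 and 15.67 against 10.88, 11.57 and 10.64, higher by 4.62 ± 0.29. Of 21 amino acid transporters 11 were lower and 3 higher (median -0.96, -1.34 to -0.38). SLC7A11, the cystine importer, stood at 7.57 and 6.55 against 13.91, 13.26 and 13.58, a difference of -6.52 ± 0.33. SLC38A1, a glutamine carrier, was -4.13 ± 0.26, the neutral amino acid exchangers SLC1A4 and SLC1A5 -3.47 ± 0.25 and -2.34 ± 0.24, and the cationic carrier SLC7A1 -3.24 ± 0.30.

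Promoters of 3 of the lower genes are shown because each holds, in capitals, a match to TGATGNAA, the letters of the amino acid response element through which ATF4 acts on ASNS. Each is the 250 bases before a RefSeq start on the gene's strand, from GRCh38.p14.

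ASNS, chr7:97872409-97872658, minus strand: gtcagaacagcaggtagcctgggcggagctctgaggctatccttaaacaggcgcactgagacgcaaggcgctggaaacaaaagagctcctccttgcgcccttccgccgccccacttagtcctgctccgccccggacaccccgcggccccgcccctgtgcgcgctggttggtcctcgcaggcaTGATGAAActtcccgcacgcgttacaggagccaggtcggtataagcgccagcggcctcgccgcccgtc

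BCAT1, chr12:24949102-24949351, minus strand: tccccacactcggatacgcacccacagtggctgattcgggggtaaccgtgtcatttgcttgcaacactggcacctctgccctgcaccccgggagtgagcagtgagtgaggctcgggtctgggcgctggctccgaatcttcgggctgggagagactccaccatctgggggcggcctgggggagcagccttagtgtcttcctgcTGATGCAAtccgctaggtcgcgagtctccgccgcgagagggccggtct

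SLC1A5, chr19:46784815-46785064, minus strand: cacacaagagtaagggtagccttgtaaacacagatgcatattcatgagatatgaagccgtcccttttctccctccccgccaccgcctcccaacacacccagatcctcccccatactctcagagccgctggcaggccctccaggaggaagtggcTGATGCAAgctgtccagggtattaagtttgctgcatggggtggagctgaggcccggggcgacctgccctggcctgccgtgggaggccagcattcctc

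The match ends 60 bases before the start in ASNS, 40 in BCAT1 and 89 in SLC1A5, and 1 of the 2, 5 and 3 starts listed for these genes has it. On either strand TGATGNAA occurs in 3.14% of 35116 windows and for 3.89% of genes. Over the 3 amino acid lists together 6 of 26 lower genes with a window had a match, the 3 shown and GOT1, MTHFD1L and SLC1A3. The call of SLC1A3 (-0.98 ± 0.37) was lost on leaving out any 1 array but that of untreated MCF10, with adjusted p of 0.088 to 0.39 by limma. Among those with a window 0 of 8 higher genes and 0 of 14 genes not called had one. These counts were made after the values were seen and were not tested, and PSAT1, MTHFD2 and SLC7A1 have windows without the letters.

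Among glucose genes the largest differences were in transporters and regulators. Of 24 measured glycolysis genes 10 were lower and 5 higher, 7 of them by at least 2. PDK1, which blocks pyruvate dehydrogenase, stood at 7.86 and 7.55 against 11.49, 11.55 and 11.59, a difference of -3.84 ± 0.22. The glucose transporters SLC2A3 and SLC2A1 were -3.24 ± 0.29 and -2.05 ± 0.28, and hexokinase HK2 was -2.47 ± 0.23. The largest of the higher genes was the aldolase ALDOA at 1.03 ± 0.21, and the 9 genes not called ranged from -0.35 (PGAM1) to 0.42 (GAPDH). The list's median was -0.12 (-0.33 to 0.31). Of 16 hypoxia response genes, which share members with this list, 10 were lower and 2 higher (median -1.82, -2.06 to -1.39), with the angiogenic factor VEGFA at -3.93 ± 0.27 and the mitophagy receptor BNIP3 at -2.19 ± 0.22. At a mean signal of 8 to 12, 62.5% of 8 hypoxia genes and 50% of 6 glycolysis genes were lower. Of all genes at that signal 51.1% were, so these counts alone lie near the background. The medians there were -1.70 for the hypoxia genes, -0.74 for the glycolysis genes and -0.71 for all genes. In the list of nucleotide sugar and pentose phosphate genes 7 of 14 were lower, among them GFPT1, which opens the hexosamine pathway, at -2.78 ± 0.26.

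Mitochondrial genes differed gene by gene. Of 23 TCA cycle genes 10 were lower and 3 higher, with the malic enzyme ME3 at -5.69 ± 0.21, the succinate dehydrogenase subunit SDHD at -3.82 ± 0.27, the pyruvate dehydrogenase subunit DLAT at -3.43 ± 0.46 and citrate synthase CS at 1.45 ± 0.22. SDHC, another subunit of that dehydrogenase, was higher by 1.25 ± 0.24. The median of the TCA cycle genes was -0.54 (-0.69 to 0.0047). In the range of mean signal used above for the glycolysis genes, 47.1% of 17 TCA cycle genes were lower and 5.88% higher. Of all genes in that range 51.1% were lower and 18.1% higher, so the count of lower TCA cycle genes alone lies near the background. The medians there were -0.74 for the TCA cycle genes and -0.71 for all genes. Of 32 respiratory chain genes 16 were higher and 5 lower (median 0.52, 0.43 to 0.99), with UQCRC1 at 1.995 ± 0.21, NDUFA2 at 1.98 ± 0.23 and NDUFB5 at -1.99 ± 0.31. The lists were not tested against each other.

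Several genes of lipid storage and fatty acid desaturation were lower in MCF10. Of 22 genes of synthesis and storage 10 were lower and 6 higher. PLIN2, the coat protein of lipid droplets, stood at 3.98 and 3.91 in MCF10 against 10.13, 9.90 and 10.24, a difference of -6.14 ± 0.22, near the negative controls in MCF10. The elongase ELOVL6 was -4.27 ± 0.23, the desaturases SCD and FADS2 -3.34 ± 0.22 and -2.97 ± 0.23, and ACACA, the rate-limiting carboxylase, -2.97 ± 0.24. In the oxidation list 10 of 24 were higher and 7 lower, with the acyl-CoA synthetase ACSL5 at -6.10 ± 0.34 and HADHA, of the mitochondrial trifunctional protein, at -3.18 ± 0.29. The medians of these lists were -0.24 (-1.18 to 0.19) and -0.19 (-0.29 to 0.33). Of 19 sterol synthesis genes 7 were higher and 6 lower, with the demethylase CYP51A1 at -4.25 ± 0.27, the isomerases IDI1 and EBP at -3.36 ± 0.46 and 2.28 ± 0.24, and HMGCS1, of the entry to the pathway, at -2.05 ± 0.32.

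Redox genes held some of the largest metabolic differences. Of 33 measured 16 were higher and 11 lower (median 0.67, 0.41 to 1.14). The aldo-keto reductase AKR1C1 stood at 14.16 and 14.71 against 6.70, 6.22 and 6.80 and AKR1C2 at 11.75 and 12.33 against 5.57, 5.81 and 5.59, with differences of 7.86 ± 0.27 and 6.38 ± 0.25. These and AKR1C3 (2.89 ± 0.22) are close relatives, so each is uncertain as a single gene. The quinone reductase NQO1 was higher by 3.77 ± 0.24 and the microsomal glutathione transferases MGST3 and MGST1 by 4.32 ± 0.21 and 3.04 ± 0.23. GSTM3, of a family with close relatives, was -5.28 ± 0.45, catalase CAT -3.06 ± 0.29 and GCLM, the modifier subunit of the enzyme that starts glutathione synthesis, -1.79 ± 0.38. The metallothioneins MT1E and MT1X, again near-identical relatives, were higher by 2.67 ± 0.22 and 1.65 ± 0.25, and the iron reductases STEAP1 and STEAP2 were -3.90 ± 0.32 and -2.60 ± 0.24. Aldehyde dehydrogenase ALDH2 was -4.14 ± 0.28 and ALDH3A1 2.67 ± 0.27.

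**Figure D3:**
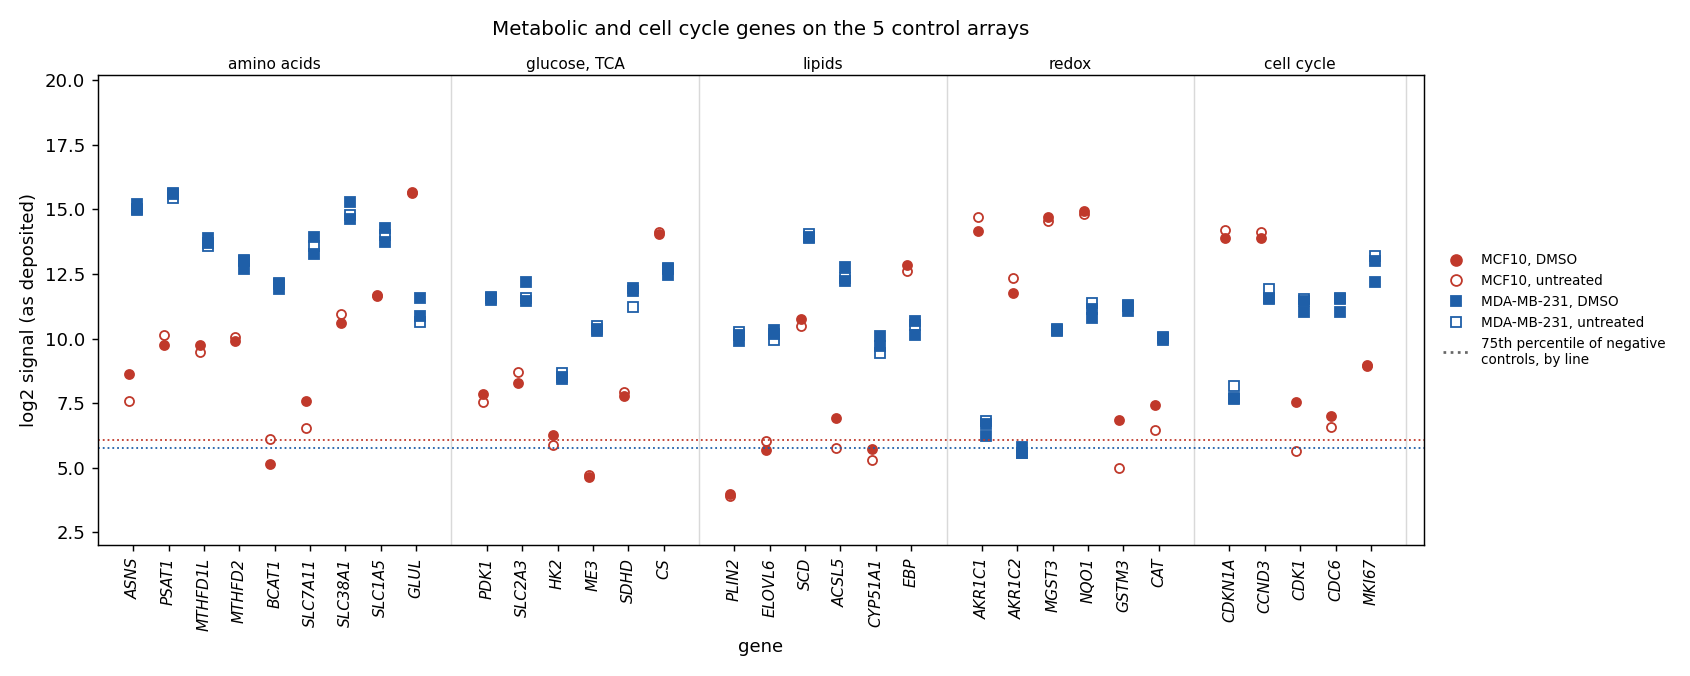
Log2 signal (vertical axis) of metabolic and cell cycle genes (horizontal axis) on the 2 MCF10 arrays (circles) and the 3 MDA-MB-231 arrays (squares); open symbols are untreated cells and dotted lines the 75th percentile of the negative controls of each line. ASNS, PSAT1, BCAT1, SLC7A11, ME3 and PLIN2 are lower on the MCF10 arrays, and GLUL, AKR1C1, NQO1 and CDKN1A higher, with no overlap.

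Cell cycle genes were mostly lower in MCF10, 18 of the 21 with a mean signal of 8 to 12 (85.7%, beside 51.1% of all genes there). Of 30 cell cycle genes 21 were lower in MCF10 and 5 higher, 18 of them by at least 2 (median -2.18, -2.36 to -1.62, against -0.76 for all genes with a mean of 8 to 10). CDK1, the mitotic kinase, stood at 7.54 and 5.66 against 11.46, 11.02 and 11.51, CDC6, which licenses replication, at 7.004 and 6.59 against 11.54, 11.03 and 11.57 and MKI67, a proliferation marker, at 8.96 and 8.92 against 13.003, 12.18 and 13.19. Their differences were -4.73 ± 0.47, -4.58 ± 0.26 and -3.85 ± 0.31. The kinase inhibitor CDKN1A was the reverse, at 13.90 and 14.19 against 7.69, 7.65 and 8.15 and higher by 6.22 ± 0.24, and cyclin CCND3 was higher by 2.34 ± 0.23. ID1 and ID3, inhibitors of differentiation that BMP signals induce, were higher by 6.30 ± 0.27 and 6.19 ± 0.37, and the ubiquitin ligase SMURF2 was -4.94 ± 0.25. The receptors TGFBR1 and TGFBR2 were lower, -3.92 ± 0.21 and -1.48 ± 0.23. Of 29 growth factor receptors 11 were lower and 8 higher, with MERTK at -5.45 ± 0.28, FGFR1 at -3.34 ± 0.32, MET at -2.62 ± 0.23 and the collagen receptor DDR1 at 2.202 ± 0.25. The WNT inhibitor DKK1 was higher by 4.27 ± 0.29 and the Notch ligand JAG1 was -4.76 ± 0.24. Of 26 cytokine and chemokine genes 10 were higher and 6 lower, with the scavenging receptor ACKR3 at 7.25 ± 0.22, CXCL1 at 4.43 ± 0.27 and IL1B at -2.56 ± 0.26.

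**Figure D4:**
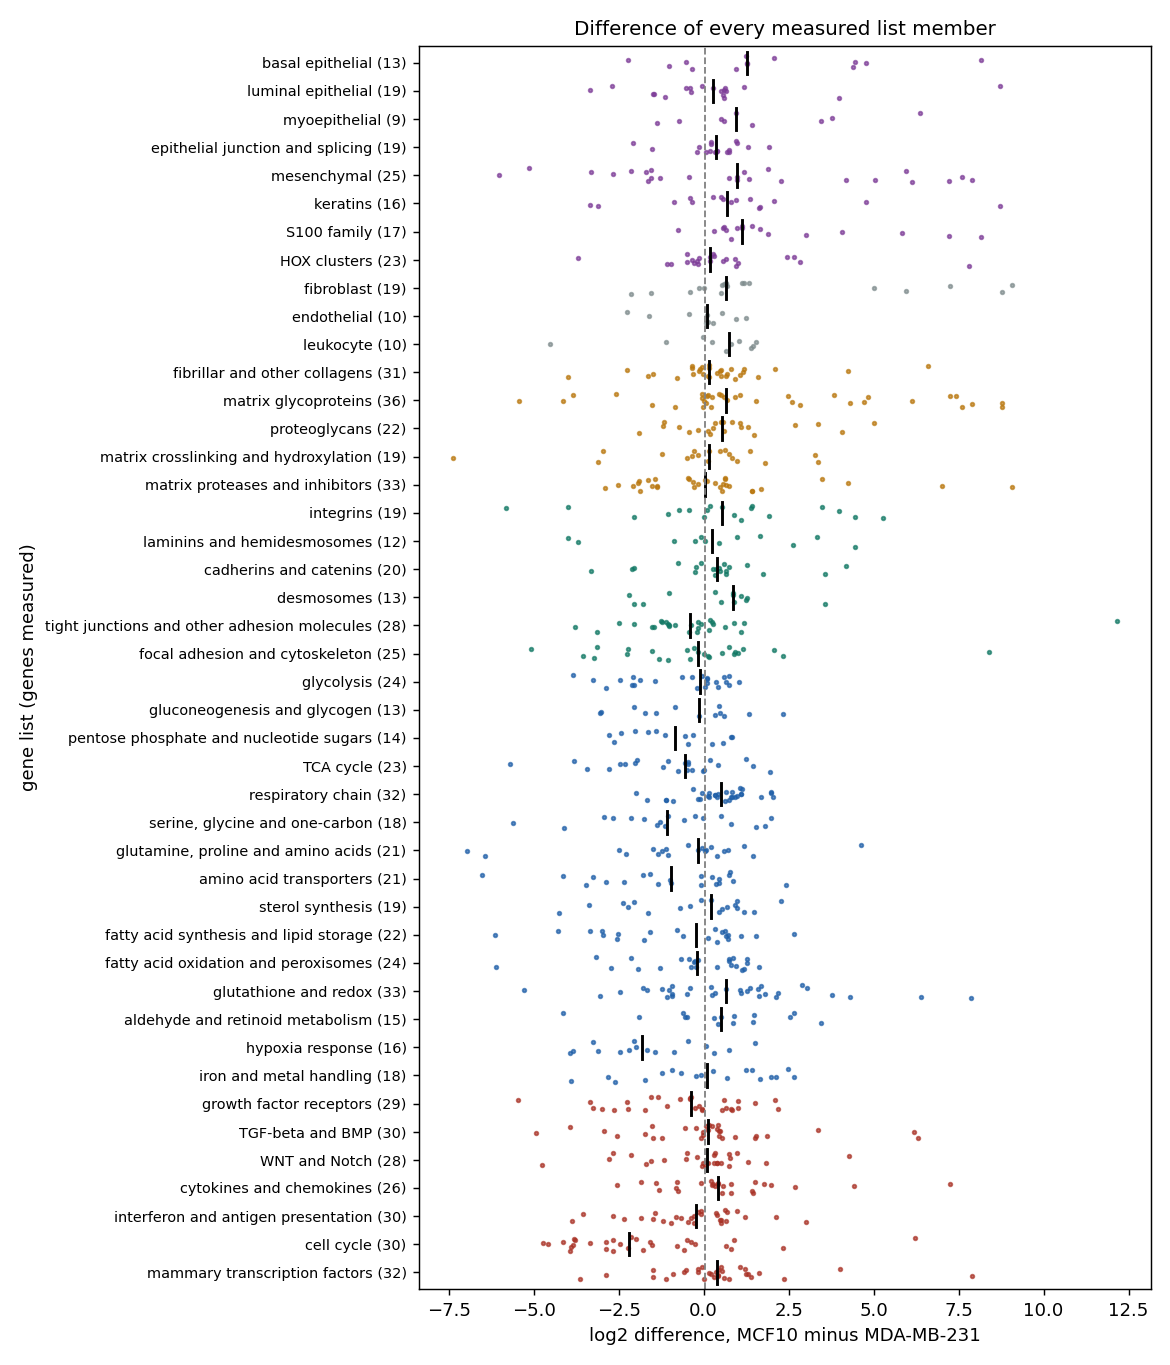
Difference on the log2 scale (horizontal axis, MCF10 minus MDA-MB-231) of every measured member of each gene list (rows, number measured in brackets; 1 point is 1 gene); black bars are list medians and the dashed line the median of all genes (0.04). The medians of the cell cycle (-2.18) and hypoxia lists (-1.82) lie farthest to the left and those of the basal epithelial (1.27) and S100 lists (1.14) farthest to the right, on the scale as deposited (the basal one is -0.33 with the signal filter), with wide spread inside nearly every list.

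The same lines were also compared where both carried DZH_2, at the concentrations that inhibit by 20% and 50% (IC20 and IC50). These 2 MCF10 and 4 MDA-MB-231 arrays share none with the control comparison, though both lines carried the compound and the background probe sets described above split the lines here too. By limma 6859 genes were called (38.8%), 2488 higher (14.1%) and 4371 lower (24.7%) in MCF10. Without the MCF10 IC20 array the count was 4402. Of the 8998 genes called on the control arrays 5246 (58.3%) were called in the same direction with DZH_2, which is 76.5% of the calls with DZH_2, and 56 in the opposite one. Of those with a difference of at least 2, 2282 of 2630 (86.8%) were, and 2597 (98.7%) had the same sign. ANPEP differed by 12.08 with DZH_2, CADM3 by 10.18, FN1 by 8.44, KRT7 by 8.24, P3H2 by -6.89 and ITGA6 by -2.39. Of the 193 called genes named here 189 had the same sign with DZH_2 and 173 were called in that direction. Beside these counts stand the 98.7% and 86.8% of all called genes with a difference of at least 2. No overlap between the lines over all 17 arrays was seen for 134 of the 193 (of all genes 17.9%). The named genes were chosen partly for large differences on arrays among the 17. A test of the difference of differences called 1281 genes (7.24%). That count was 496 to 830 when any 1 of the 5 control arrays was left out and 2518 without the MCF10 IC50 array. KRT5, a defining basal marker, was among them: it differed by 4.78 on the control arrays and by 1.38 with DZH_2, adjusted p = 0.0039 by limma in the latter. Without the MCF10 IC20 array KRT5 was no longer called there, with a difference of 1.06 and adjusted p = 0.052 by limma. ASNS differed by -6.96 and -2.92, and its interaction had adjusted p = 0.14 by limma.

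**Figure D5:**
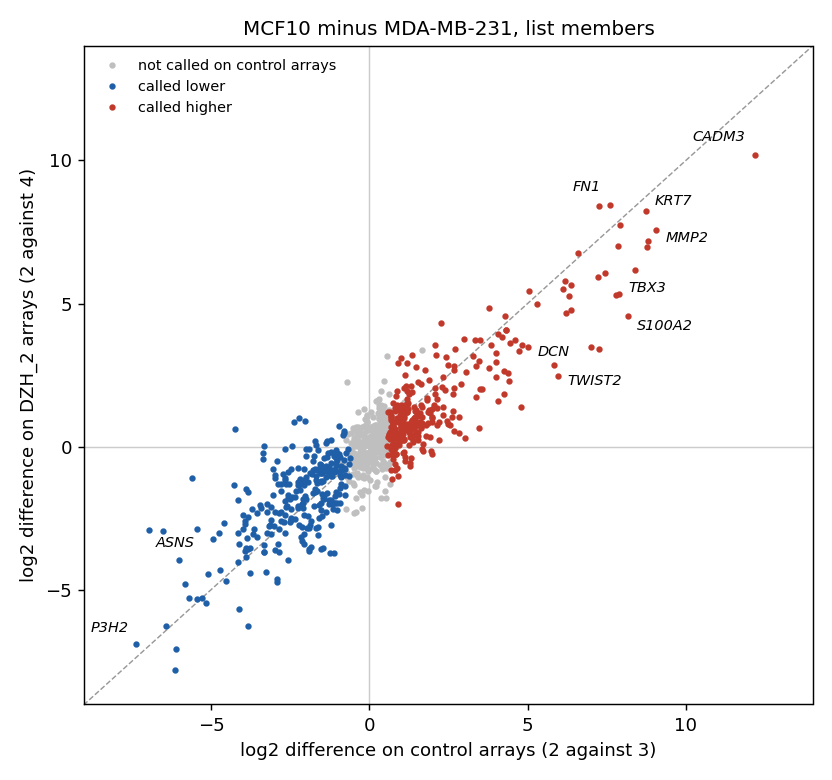
Difference between the lines on the log2 scale, MCF10 minus MDA-MB-231, on the control arrays (horizontal axis) and on the DZH_2 arrays (vertical axis) for every measured list member (1 point is 1 gene; colours give the call on the control arrays; the dashed line marks equal values). FN1, KRT7 and P3H2 lie near the line, while S100A2, TWIST2, TBX3, CADM3, MMP2, DCN and ASNS lie closer to 0 with DZH_2.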

How the data were processed

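The deposited log2 signals of 24351 probe sets on 17 Affymetrix arrays were used as deposited. The authors' summarisation and normalization were not stated in any source used here. Of the probe sets 17709 were paired with 1 gene, 3739 had no gene listed and the rest were controls. Where a gene had more than 1 probe set (20 genes), the brightest by its mean on the 5 arrays stood for it, which left 17687 genes. Groups came from the sample titles. The lines were compared with limma 3.58.1 (lmFit and eBayes, R 4.3.3; DMSO and untreated arrays of a line taken as 1 group, 3 residual degrees of freedom, 2-sided tests), after a test on simulated data. The number of arrays limits the precision.

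The genes, the 44 lists (1002 genes, 893 measured) and the tests were chosen with earlier results of these data known. Named were the 12 largest called differences each way without overlap and up to 5 called members of each list each way. Members that account for a pair or complex were named too, as were cell type markers, though not all of these markers. GOT1, SLC1A3, S100A5 and S100A12, with motif matches, and PGAM1 and GAPDH were added after their values were seen. Alternatives were other scalings, a signal filter, other sets of arrays, other variance models and leaving out each array. Cyclic loess, the size of at least 2, the fit with control probe sets and the motif search were chosen after seeing the data. Promoter windows are from RefSeq (GRCh38.p14); genes absent from that table have none here.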

Additional observations from a re-analysis of the deposited data

Results flagged for a closer look

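For 50 of the 193 called genes named in the report the difference between the lines was another where both carried DZH_2, by the interaction term in limma at adjusted p under 0.05. This is beside 7.24% of all genes, and the named genes were chosen partly for large differences. Those differences were on the same control arrays that enter this term. A smaller difference with DZH_2 can therefore follow in part from the choice alone, and how far it does was not tested. The values below are the difference with DZH_2 minus that on the control arrays, on the log2 scale, over 11 arrays. With each array left out in turn all 50 values kept their sign, and 29 kept adjusted p under 0.05 throughout (limma). The others were YPEL3, MMP2, EFEMP1, DDX21, ENPP1, TRIM29, DCN, TAGLN, FBLN5, HSPG2, CSPG4, ITGB1, HOXC11, UQCRC1, PSAT1, SLC7A11, ALDH3A1, DDR1, SMURF2, JAG1 and IRX4. The fewest, 33, passed without MDA-MB-231 DMSO replicate 1 or without untreated MCF10.

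Among those higher in MCF10 most had a smaller difference with DZH_2. For the basal genes it changed by -3.60 in S100A2, -3.40 in KRT5, -1.82 in TRIM29 and -3.54 in SERPINB5, and for the S100 genes S100A3 and S100A13 by -2.97 and -2.69. For matrix genes it changed by -1.51 in MMP2, -1.61 in FBLN1, -1.78 in EFEMP1, -1.37 in FBLN5, -1.54 in DCN, -2.48 in BGN, -1.62 in HSPG2 and -2.41 in COL8A1. For factors it changed by -3.48 in TWIST2, -2.58 in TBX3, -1.58 in IRX4, -2.52 in HOXC13 and -1.56 in HOXC11. Surface and cytoskeletal genes gave -7.63 in SCNN1G, -1.99 in CADM3, -3.83 in ACKR3, -1.34 in DDR1, -2.24 in TPM2 and -1.58 in TAGLN. DUSP1, DUSP23 and YPEL3 gave -3.32, -1.79 and -1.58. The mitochondrial and aldehyde genes UQCRC1, NDUFA2 and ALDH3A1 gave -1.15, -2.23 and -2.12. DSP and EBP were exceptions, with differences that grew by 2.002 and 2.03.

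Among genes lower in MCF10 the difference was mostly nearer to 0 with DZH_2. The sterol and fatty acid genes gave 4.88 in CYP51A1, 3.15 in IDI1, 2.96 in HMGCS1, 3.37 in SCD, 2.94 in ELOVL6 and 1.87 in FADS2. The amino acid genes PSAT1 and SLC7A11 gave 4.51 and 3.58. Values for MANEA, DDX21, ENPP1, SDHD, ITGB1, SMURF2 and JAG1 were 2.11, 1.88, 1.56, 2.24, 1.27, 1.72 and 1.75. PLIN2 and CSPG4 went the other way, at -1.68 and -1.74. For SCD (-3.34 on the control arrays, 0.03 with DZH_2) and NDUFA2 (1.98, -0.26) the difference with DZH_2 was close to 0. For CYP51A1 (-4.25, 0.63) and HMGCS1 (-2.05, 0.91) it had the opposite sign and was smaller. A turned sign alone does not show a reversed difference.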

How the results depend on the processing

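The control comparison rests on 3 residual degrees of freedom, and 28.3% of negative control probe sets were called, so small differences are the least certain. Genes near the negative controls have no reliable size. Of the 193 called genes named in the report 190 kept their direction and their call under every alternative that tested them (the signal filter left out 11); S100A12, SLC1A3 and PHGDH lost the call in some, and 0 reversed. The control comparison called 8998 genes. Testing against a difference of 1 left 3301 (718 higher, 2583 lower) and asking for a difference of at least 2 left 2630 (509 higher, 2121 lower), both by construction. Leaving out 1 array gave 7044 to 8592, and the other alternatives 7223 to 11489. Centring each array gave 7453 higher and 4036 lower, quantile normalization 4611 and 4033, cyclic loess 4334 and 4295, and the signal filter 2250 and 4973. The cause of these shifts was not tested. The comparison of DZH_2 arrays called 6859 genes and 4402 to 7090 with 1 array left out, the lowest without MCF10 IC20. The difference of differences called 1281 genes and 496 to 2518 with 1 array left out, the lowest without MDA-MB-231 DMSO replicate 1. No paired analysis was possible because each MCF10 group has 1 array, so replicate numbers pair nothing; DMSO against untreated as a covariate gave 8999 genes.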
